A study of Mus musculus with 12 samples.

Results

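The genotype effect on the polysome-to-RNP ratio was measured gene by gene in fully grown mouse oocytes with and without *Lsm14b*. For each gene the log2 difference between the polysome pool and the RNP pool was taken in each genotype, and the WT difference was subtracted from the KO difference. A value below 0 means that the transcript was less on the polysome side in KO than in WT. A gene entered the comparison when 3 or more of the 12 libraries held it at 1 FPKM or above, which 10949 of the 24259 listed genes did. FPKM scales the fragments of a gene to its transcript length and to the depth of the library, so it is a share within a library and not an amount of RNA per oocyte.

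The oocytes were at the germinal vesicle (GV) stage and were taken from WT mice and *Lsm14b* KO mice aged 3 weeks, 46 h after a dose of 5 IU of pregnant mare serum gonadotropin (PMSG). The KO mice were homozygous for a knockout-first, reporter-tagged allele of *Lsm14b* (tm1a) on C57BL/6J, so that the gene is disrupted in all cells of the animal and not in the oocyte alone. About 1500 oocytes, held in cycloheximide, were lysed and separated on a sucrose gradient of 28 fractions. Fractions 1 to 10 formed the RNP pool and fractions 11 to 28 the polysome pool, with 3 libraries of each pool from each genotype. Nothing in the sources used here says whether the 3 libraries of a group came from separate animals or gradients, so the p-values measure the spread between libraries, which may be technical.

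LSM14B is an RNA-binding protein of the LSM14 family that is found with other proteins of stored mRNA in oocytes. A growing oocyte makes large amounts of mRNA, keeps much of it in ribonucleoprotein (RNP) particles, and starts to translate it at set times of meiotic maturation, when transcription is silent. In a sucrose gradient, mRNA with many ribosomes sediments fast and free or stored mRNA sediments slowly. A short coding sequence has room for few ribosomes, so its polysomes are light.

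*Lsm14b* was lost as the labels say. In WT it was at 34.6, 29.3 and 27.4 FPKM in the RNP pool and at 11.3, 15.3 and 13.2 FPKM in the polysome pool. In KO it was at 0.893, 0.0627 and 0 FPKM in the RNP pool and at 0.26, 0 and 0.0876 FPKM in the polysome pool. The gene lies at chr2:180024987-180035465 (mm10, plus strand).

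The ratio differed between the genotypes in 26 genes at an adjusted p under 0.05, which is 0.237% of the genes tested. It was lower in KO in 17 genes (0.155%) and higher in 9 (0.0822%). At an unadjusted p under 0.05 the count was 1220 genes (11.1%), 615 lower (5.62%) and 605 higher (5.53%). The median change of all genes tested was 0.038 on the log2 scale, with 47.6% of genes below 0. The count rested on single libraries. It was 0 without KO RNP library 2 or without KO RNP library 3, 3 without KO RNP library 1, 2 without WT RNP library 2, 3 without WT RNP library 3, 6 without KO polysome library 2, 14 without KO polysome library 3, and 46 without WT polysome library 3. Without the intensity trend of the fit it was 6. In each of these fits all 26 genes kept their direction with an unadjusted p under 0.05. The 26 were picked by their p in libraries that these fits reuse, so this describes the calls and does not support them.

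**Figure D1:**
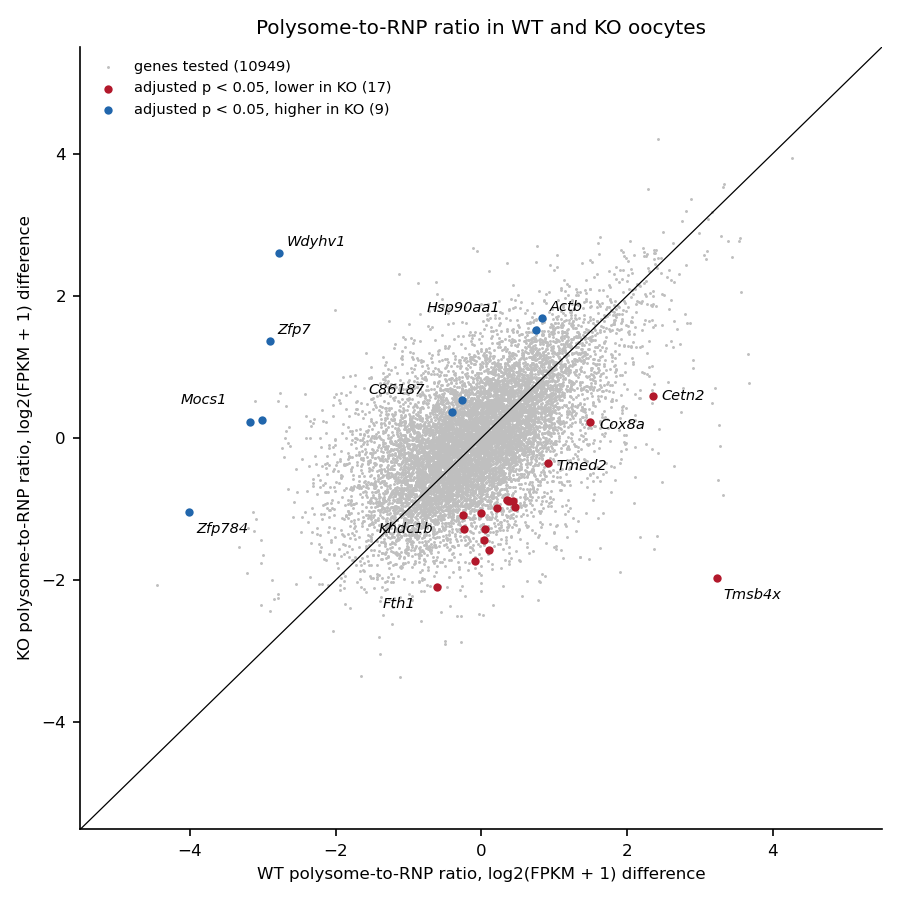
Each point is a gene, placed by its polysome-to-RNP ratio in WT (x axis) and in KO (y axis), both as a difference of mean log2(FPKM + 1), n = 3 libraries per pool and genotype. The line marks equal ratios, and the 17 genes lower in KO (red) lie below it and the 9 genes higher in KO (blue) above it.

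Most of the genes with a lower ratio encoded small proteins. All 17 had an annotated coding sequence, with a median of 378 bases (126 amino acids), against 1341 bases (447 amino acids) over the 10449 tested genes with one. Of the 17, 16 lay in the shortest quintile (of 5 groups of equal size) of coding length, which held coding sequences of up to 714 bases. The exception was *Thap4*, at 1707 bases. Of the 9 genes with a higher ratio, 7 had an annotated coding sequence, with a median of 1464 bases, and 1 (*Wdyhv1*, 627 bases) lay in the shortest quintile. The 3 shortest coding sequences among the genes with a lower ratio are given whole, from start to stop, because 16 of the 17 share a short coding sequence. The first and last codons are in capitals.
Tmsb4x: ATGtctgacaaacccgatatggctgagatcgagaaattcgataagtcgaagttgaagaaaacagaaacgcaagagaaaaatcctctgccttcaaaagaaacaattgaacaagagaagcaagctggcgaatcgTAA
Cox8a: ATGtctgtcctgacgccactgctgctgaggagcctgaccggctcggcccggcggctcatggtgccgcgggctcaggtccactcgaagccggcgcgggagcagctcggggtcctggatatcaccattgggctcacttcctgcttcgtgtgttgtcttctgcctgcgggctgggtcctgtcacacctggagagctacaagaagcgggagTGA
Stra13: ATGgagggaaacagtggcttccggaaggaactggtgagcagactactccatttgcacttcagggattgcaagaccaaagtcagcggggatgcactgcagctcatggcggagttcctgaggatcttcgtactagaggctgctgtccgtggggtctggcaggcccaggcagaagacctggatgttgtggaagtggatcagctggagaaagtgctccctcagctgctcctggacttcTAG
They are read from the GENCODE M21 transcripts of GRCm38, all on the minus strand. The first is 135 bases with its stop codon, from the gene at chrX:167207093-167209315. The *Cox8a* sequence is 210 bases, from chr19:7215153-7217616. The *Stra13* sequence is 237 bases, from chr11:120710942-120713738, where the annotation now names the gene *Cenpx*.

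Of the 17 genes with a lower ratio, 16 were at a higher level in every KO RNP library than in every WT RNP library, a pattern held by 19.8% of all genes tested. In the polysome pool, every KO library was below every WT library for 8 of the 17 (12% of all genes tested), the libraries overlapped for 7, and every KO library was above every WT library for 2 (17% of all genes tested). The same libraries gave the calls, so these counts describe the calls and do not support them. Most of these mRNAs were thus at a higher FPKM in the KO RNP pool, with or without a lower FPKM in the KO polysome pool.

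*Cetn2* encodes centrin 2, a small calcium-binding protein of centrioles that also acts in DNA repair. Its level in the RNP pool was 53.0, 42.7 and 34.1 FPKM in WT and 115, 104 and 103 FPKM in KO. In the polysome pool it was 227, 213 and 225 FPKM in WT and 164, 165 and 157 FPKM in KO. The libraries of the genotypes did not overlap in either pool, and the pools moved in opposite directions. The polysome-to-RNP ratio of mean FPKM was 5.13 in WT and 1.51 in KO. The change was -1.76 ± 0.21 (SE) on the log2 scale, with an adjusted p of 0.0109, the lowest of all genes tested. *Cetn2* lies at chrX:72913532-72918411 on the minus strand and has 172 codons.

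*Cox8a*, a subunit of cytochrome c oxidase of 69 amino acids, was at 266, 239 and 214 FPKM in the WT RNP libraries and at 402, 433 and 475 FPKM in the KO RNP libraries. In polysomes it was at 779, 559 and 704 FPKM in WT and 433, 529.7 and 574 FPKM in KO. The RNP libraries of the genotypes were apart and the polysome libraries overlapped. The change was -1.27 ± 0.20 (SE), adjusted p 0.0204. *Atp5g1*, which encodes a c subunit of the ATP synthase rotor, was at 51.3, 49.2 and 50.5 FPKM in the WT RNP libraries and at 141, 142 and 144 FPKM in the KO RNP libraries. In the polysome libraries it was at 57.3, 56.5 and 49.7 FPKM in WT and at 57.1, 52.5 and 34.4 FPKM in KO. Its RNP level was thus higher in KO while the polysome libraries overlapped, and the change was -1.69 ± 0.25 (SE), adjusted p 0.0204.

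*Timm8b*, a small chaperone of mitochondrial protein import, went the other way about. Its RNP level overlapped between the genotypes, at 367, 377 and 279 FPKM in WT and 358, 309.7 and 373 FPKM in KO. The polysome values were 244, 306 and 314 FPKM in WT and 135, 146 and 143 FPKM in KO, so the change of -1.05 ± 0.19 (SE; adjusted p 0.0490) came with a lower polysome level. *Timm8b* was the 1 gene of the 17 with overlapping RNP libraries. *Sdhaf4*, an assembly factor of succinate dehydrogenase, moved in both pools. It was at 116, 92.3 and 94.1 FPKM in the WT RNP libraries and at 182, 135 and 155 FPKM in the KO RNP libraries. Its polysome level was 89.6, 78.4 and 120.0 FPKM in WT and 40.8, 57.6 and 42.0 FPKM in KO, and the change was -1.65 ± 0.27 (SE), adjusted p 0.0243. *Acot13*, an acyl-CoA thioesterase associated with mitochondria, was at 52.5, 56.1 and 45.0 FPKM in the WT RNP libraries and at 174, 164 and 183 FPKM in the KO RNP libraries. In polysomes it was at 59.5, 51.3 and 48.5 FPKM in WT and 61.6, 76.0 and 77.0 FPKM in KO, and the change was -1.33 ± 0.21 (SE), adjusted p 0.0204. *Acot13* was thus higher in KO in both pools, and more so in the RNP pool.

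**Figure D2:**
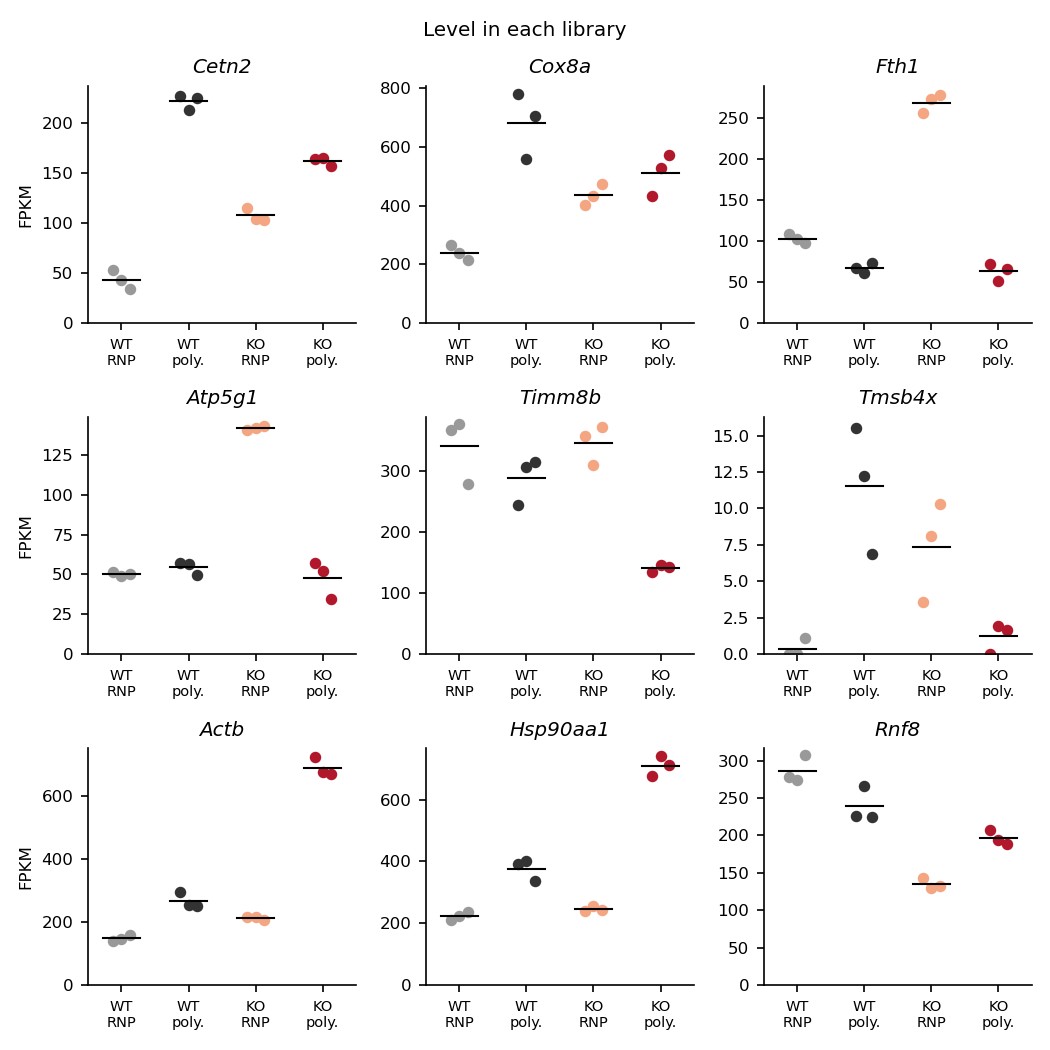
FPKM of 9 genes in each library (points, 3 per group) with the group mean (line), for the RNP and polysome pools of WT (grey) and KO (red). *Fth1* and *Atp5g1* were higher in the KO RNP libraries with overlapping polysome libraries, *Timm8b* was lower in the KO polysome libraries, and *Actb* and *Hsp90aa1* were highest in the KO polysome libraries.

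*Fth1*, the heavy chain of the iron store ferritin, had a higher FPKM in the RNP pool than in the polysome pool in both genotypes. Its RNP level was 108, 102 and 97.4 FPKM in WT and 256, 273 and 278 FPKM in KO. The polysome values were 66.9, 61.1 and 73.6 FPKM in WT and 72.3, 50.7 and 65.5 FPKM in KO. The ratio of mean FPKM was 0.656 in WT and 0.234 in KO, a change of -1.49 ± 0.20 (SE), adjusted p 0.0204. *Prdx2*, a peroxiredoxin that removes hydrogen peroxide, was also higher in the KO RNP libraries, with RNP levels of 319, 257 and 254 FPKM in WT and 554, 554 and 542 FPKM in KO. Its polysome libraries overlapped, at 337, 343 and 480.1 FPKM in WT and 345, 238 and 267 FPKM in KO, and its change was -1.44 ± 0.22 (SE), adjusted p 0.0204.

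*Rplp1*, an acidic protein of the ribosomal stalk, was the cytosolic ribosomal protein gene that passed. Its RNP level was 165, 117 and 118 FPKM in WT and 249, 289.7 and 259.8 FPKM in KO. Its polysome libraries overlapped, at 169.9, 186 and 182 FPKM in WT and 139, 125 and 171 FPKM in KO, and the change was -1.32 ± 0.21 (SE), adjusted p 0.0226. *Khdc1b*, an oocyte KH-domain gene and the most abundant of the 17, was at 1766, 1771 and 1841 FPKM in the WT RNP libraries and at 4378, 4538 and 4109 FPKM in the KO RNP libraries. Its polysome level was 1599, 1560.5 and 1358 FPKM in WT and 1773, 2136 and 2245 FPKM in KO. Both pools were higher in KO, the RNP pool more so, and the change was -0.83 ± 0.13 (SE), adjusted p 0.0204. *Khdc1b* has close relatives in the genome, and *Rplp1*, *Fth1*, *Atp5g1*, *Actb* and *Tmsb4x* have processed copies, so how fragments were split among copies is uncertain for these genes.

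*Tmsb4x*, which encodes the actin monomer-binding peptide thymosin beta 4, had the largest fall and a low level. It was listed at 0, 0 and 1.09 FPKM in the WT RNP libraries and at 3.60, 8.12 and 10.3 FPKM in the KO RNP libraries. In the polysome libraries it was at 15.5, 12.2 and 6.89 FPKM in WT and at 0, 1.95 and 1.67 FPKM in KO. The genotypes did not overlap in either pool, and the larger level was on the polysome side in WT and on the RNP side in KO. The change was -5.20 ± 0.76 (SE), adjusted p 0.0204. It was -2.56 with a pseudocount of 5 and -8.85 with a pseudocount of 0.1, so its size is set by the pseudocount.

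The other 6 genes with a lower ratio had changes between -1.47 and -1.05. *Tmed2*, a cargo receptor between the endoplasmic reticulum and the Golgi, changed by -1.26 ± 0.20 (SE), and *Rab32*, a small GTPase of membrane traffic, by -1.26 ± 0.23 (SE). *Smagp*, a small transmembrane glycoprotein, changed by -1.05 ± 0.16 (SE), from 427 ± 42.4 FPKM (SD, n = 3) in WT RNP and 427 ± 56.0 FPKM in WT polysomes to 515 ± 40.2 FPKM in KO RNP and 247 ± 11.4 FPKM in KO polysomes. *Stra13*, a histone-fold protein that acts at centromeres and in DNA repair, changed by -1.20 ± 0.20 (SE), and *Thap4*, a THAP-type zinc finger protein, by -1.47 ± 0.24 (SE). The uncharacterised *0610012G03Rik* changed by -1.23 ± 0.22 (SE). Across these genes the KO RNP libraries were again all above the WT RNP libraries. *Thap4* overlaps exons of *Gm10550*, and *Prdx2*, *Timm8b* and *Sdhaf4* also overlap exons of another annotated gene. The libraries do not mark strand, so fragments of overlapping genes cannot be told apart.

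The 9 genes with a higher ratio fell into a group of 4 abundant transcripts, with mean levels of 214 to 1533 FPKM and changes of 0.76 to 0.85, and a group of 5 low ones, with mean levels of 3.64 to 12.2 FPKM and changes of 2.97 to 5.37. Every KO polysome library was above every WT polysome library for 7 of the 9 (17% of all genes tested) and below for 2 (12%). In the RNP pool, every KO library was below every WT library for 4 of the 9 (17.2% of all genes tested), the libraries overlapped for 3 and every KO library was above for 2 (19.8%). The same libraries gave these calls too, so the counts only describe them.

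*Actb*, the cytoplasmic beta actin, was at 140.0, 146 and 158 FPKM in the WT RNP libraries and at 216, 214 and 208 FPKM in the KO RNP libraries. In the polysome libraries it was at 294, 253 and 251 FPKM in WT and at 723, 675 and 671 FPKM in KO. *Hsp90aa1*, the stress-inducible form of the chaperone HSP90, was at 210.2, 223 and 236 FPKM in the WT RNP libraries and at 239, 256 and 242 FPKM in the KO RNP libraries. In polysomes it was at 393, 400.1 and 338 FPKM in WT and 676, 741 and 713 FPKM in KO. Both genes were higher in KO in both pools, with the larger difference in the polysome pool. The change was 0.85 ± 0.14 (SE; adjusted p 0.0206) for *Actb* and 0.78 ± 0.13 (SE; adjusted p 0.0297) for *Hsp90aa1*.

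Granulosa and cumulus cells, which surround the oocyte, express *Actb* strongly, and the summed level of their markers was also higher in the KO polysome libraries, though not that of each marker. The summed level of 14 such markers was 86.0 to 110.1 FPKM in KO polysomes, 42.7 to 66.6 FPKM in KO RNP, 27.2 to 75.5 FPKM in WT polysomes and 31.3 to 37.3 FPKM in WT RNP. Of the 14, 8 or 9 were above 0 in the KO polysome libraries, 7 to 9 in KO RNP, 4 to 6 in WT polysomes and 3 to 6 in WT RNP. *Lhcgr*, the receptor for luteinizing hormone, and *Ptx3*, a cumulus matrix protein, were listed at 0 in all 12 libraries, and *Foxl2* and *Amhr2* were listed at 0 in all but a KO RNP library. Of the 14, 8 passed the filter, 6 above 0 and 2 below, with a median change of 0.83. *Gja1*, a gap junction gene of the list, passed it only through the KO polysome libraries. Its direction was thus fixed by the filter, and these figures only describe the list. *Inhba*, also of the list, reached 1 FPKM in every KO polysome library and in no WT polysome library. The filter thus favours markers with a higher ratio, and the next share is a description and not a test. Of the 8 markers, 3 (37.5%) had an unadjusted p under 0.05, all higher, against 5.53% of all genes tested. Among these, *Fshr*, the receptor for follicle-stimulating hormone, was at 0, 0 and 0.7 FPKM in the WT polysome libraries and at 4.36, 3.14 and 6.74 FPKM in the KO polysome libraries, a change of 1.34 ± 0.55 (SE), adjusted p 0.384. *Inha*, the inhibin alpha subunit, was at 9.58, 0 and 8.11 FPKM in the WT polysome libraries and at 51.4, 39.4 and 39.5 FPKM in the KO polysome libraries. It made up much of the summed level in KO polysomes, and without it the summed polysome levels of the genotypes overlap. *Inha* was also higher in KO RNP, and its change of 0.48 ± 1.00 (SE) did not pass. *Cyp19a1*, the aromatase of estrogen synthesis, lay below 0. It was at 62.0, 19.003 and 32.0 FPKM in the WT polysome libraries and at 14.6, 23.5 and 34.5 FPKM in the KO polysome libraries, and at 25.97, 21.9 and 21.1 FPKM in WT RNP and 33.1, 37.6 and 22.0 FPKM in KO RNP. Its libraries overlapped in both pools, and its change was -0.92 ± 0.55 (SE), adjusted p 0.577. In such pooled samples, more follicle cells and more RNA per follicle cell cannot be told apart. The part of follicle cells in the change of *Actb* and *Hsp90aa1* was not tested. The 14 oocyte markers were all above 0 in every library, and their summed level was at least 5732 FPKM.

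*Rnf8*, a ubiquitin ligase of the DNA damage response, and *C86187*, annotated as a long intergenic noncoding RNA, were lower in KO in both pools, and more so in the RNP pool. *Rnf8* was at 278, 274 and 308 FPKM in the WT RNP libraries and at 143, 130.4 and 132 FPKM in the KO RNP libraries. The polysome values were 227, 266 and 225 FPKM in WT and 207, 195 and 189 FPKM in KO, and the change was 0.80 ± 0.15 (SE), adjusted p 0.0490. *C86187* was at 2144, 2571 and 2643 FPKM in the WT RNP libraries and at 810.1, 827 and 747 FPKM in the KO RNP libraries. Its polysome level was 1884, 1938 and 1756 FPKM in WT and 904, 1063 and 1108 FPKM in KO, and the change was 0.76 ± 0.14 (SE), adjusted p 0.0416.

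The 5 low transcripts were at or near 0 in the WT polysome libraries. *Wdyhv1*, an N-terminal glutamine amidase, was listed at 0 in all 3 WT polysome libraries and at 7.99, 13.8 and 5.99 FPKM in the KO polysome libraries. In the RNP pool it was at 1.83, 11.5 and 7.99 FPKM in WT and at 2.01, 0.399 and 0 FPKM in KO, so the RNP libraries overlapped. *Zfp7* and *Zfp784* encode zinc finger proteins. *Zfp7* was at 1.39, 0 and 0 FPKM on WT polysomes against 2.67, 5.59 and 2.71 FPKM in KO polysomes, and *Zfp784* was at 0, 0.0807 and 0.0651 FPKM against 5.26, 4.02 and 4.69 FPKM. Both were lower in the KO RNP libraries than in the WT RNP libraries. *Mocs1*, of molybdenum cofactor synthesis, was at 1.80, 0 and 1.71 FPKM in the WT polysome libraries against 15.4, 22.7 and 11.9 FPKM in those of KO, with overlapping RNP libraries at 10.5 to 21.6 FPKM. *1700030A11Rik*, annotated as an antisense RNA, was listed at 0 in the WT polysome libraries and at 7.40, 10.9 and 10.6 FPKM in the KO polysome libraries, with RNP libraries between 6.14 and 9.02 FPKM in both genotypes. The changes of these 5 genes grow as the pseudocount shrinks, for *Wdyhv1* from 2.46 at a pseudocount of 5 to 10.04 at 0.1. Of the 9 genes with a higher ratio, 5 overlap exons of another annotated gene, namely *Zfp7*, *Zfp784*, *1700030A11Rik*, *Rnf8* and *C86187*.

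**Figure D3:**
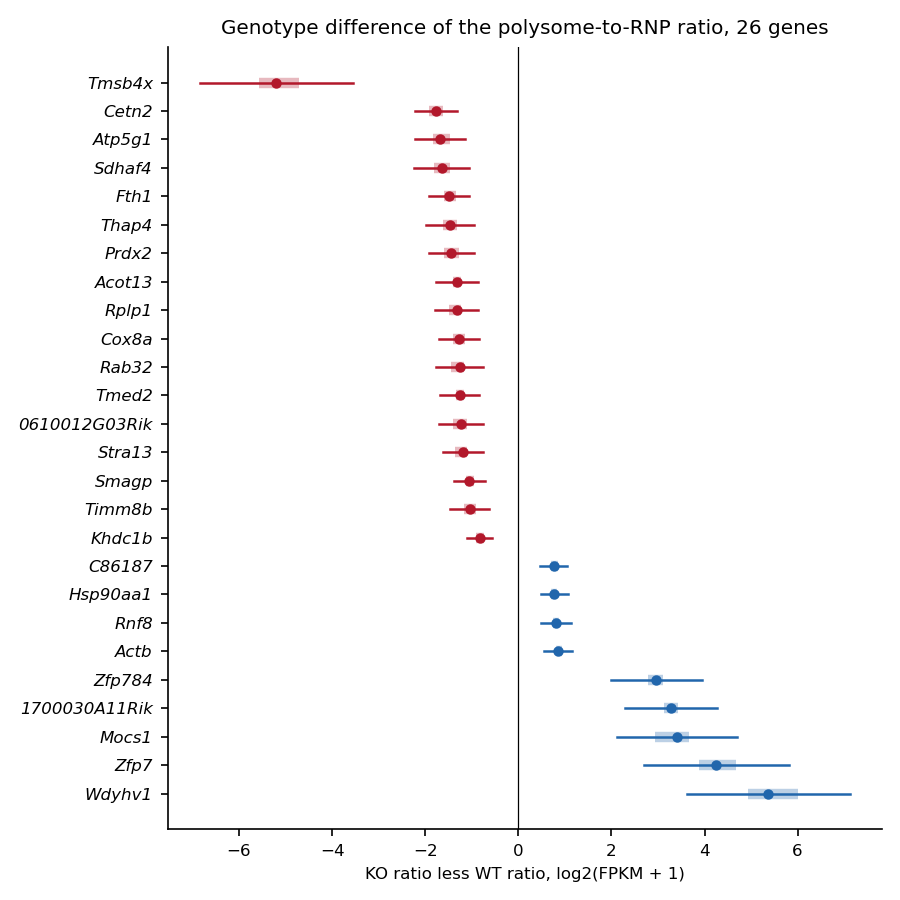
Change of the polysome-to-RNP ratio (KO less WT, log2(FPKM + 1)) of the 26 genes, with its 95% interval (thin line) and the range over 12 fits that each leave out 1 library (broad band). The changes ran from -5.20 for *Tmsb4x* to 5.37 for *Wdyhv1*, and no range crossed 0. The fits reuse the libraries that gave the calls.

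The gene families of the respiratory chain and of the ribosomes had medians below that of all genes tested. Each family is described by the number of its members in each direction and its median, with no test of the family. Of 34 subunit genes of complex I, 27 were below 0 and 7 above, with a median of -0.56 against 0.038 for all genes tested. None of the 34 passed, and 6 (17.6%) had an unadjusted p under 0.05, all lower, where 5.62% of all genes tested had one. Among members averaging 5 FPKM or more, the accessory subunit genes *Ndufb11*, *Ndufa7* and *Ndufa6* had the lowest unadjusted p. They changed by -0.86 ± 0.21 (SE), -1.05 ± 0.28 (SE) and -0.95 ± 0.31 (SE), with adjusted p of 0.135, 0.154 and 0.253. All 3 were higher in the KO RNP libraries than in the WT RNP libraries, without overlap.

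Of 16 ATP synthase genes, 14 were below 0, with a median of -0.58, and *Atp5g1* passed. *Atp5e*, the epsilon subunit, was at 3.74, 7.97 and 3.74 FPKM in WT RNP, 8.31, 12.7 and 9.09 FPKM in WT polysomes, 14.1, 7.57 and 9.79 FPKM in KO RNP and 5.17, 2.88 and 1.73 FPKM in KO polysomes. Its change of -2.36 ± 0.57 (SE) had an adjusted p of 0.127. The subunit gene *2010107E04Rik* changed by -1.27 ± 0.46 (SE), adjusted p 0.316. Of 28 genes of complexes II to IV and cytochrome c, 19 were below 0, with a median of -0.33. Of these, 8 (28.6%) had an unadjusted p under 0.05 in the lower direction and 1 in the higher. Besides *Cox8a*, which passed, *Cox7c* changed by -1.78 ± 0.38 (SE; adjusted p 0.0877) and *Cox7a2* by -1.63 ± 0.36 (SE; adjusted p 0.0949). Both are small cytochrome c oxidase subunits. *Cox7c* was at 10.0, 5.86 and 5.40 FPKM in WT RNP and 17.9, 18.2 and 14.8 FPKM in KO RNP, and at 35.1, 22.2 and 28.1 FPKM in WT polysomes and 20.1, 17.2 and 17.8 FPKM in KO polysomes, with no overlap in either pool.

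Of 63 cytosolic ribosomal protein genes, 46 were below 0 and 17 above, with a median of -0.33. Their median ratio was 0.019 in WT and -0.31 in KO. *Rplp1* passed, and 10 (15.9%) had an unadjusted p under 0.05, all lower. *Rpl32*, a protein of the large subunit, changed by -1.09 ± 0.28 (SE; adjusted p 0.143). *Rpl32* was at 96.4, 71.6 and 60.6 FPKM in WT RNP and at 166, 148 and 175 FPKM in KO RNP, with overlapping polysome libraries. Of 75 mitochondrial ribosomal protein genes, 50 were below 0, with a median of -0.20, and 11 (14.7%) had an unadjusted p under 0.05 in the lower direction and 2 in the higher. *Mrps14* changed by -1.42 ± 0.31 (SE), *Mrpl14* by -0.99 ± 0.22 (SE) and *Mrps24* by -0.96 ± 0.23 (SE), with adjusted p of 0.103, 0.106 and 0.127. The annotated coding sequences of these 5 families were short, with medians of 324 to 588 bases. Not every list with short coding sequences had a lower median. The median change was 0.073 for the Tcl1 family (median of 351 bases). For the replication-independent histone variants (429 bases) it was 0.049.

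**Figure D4:**
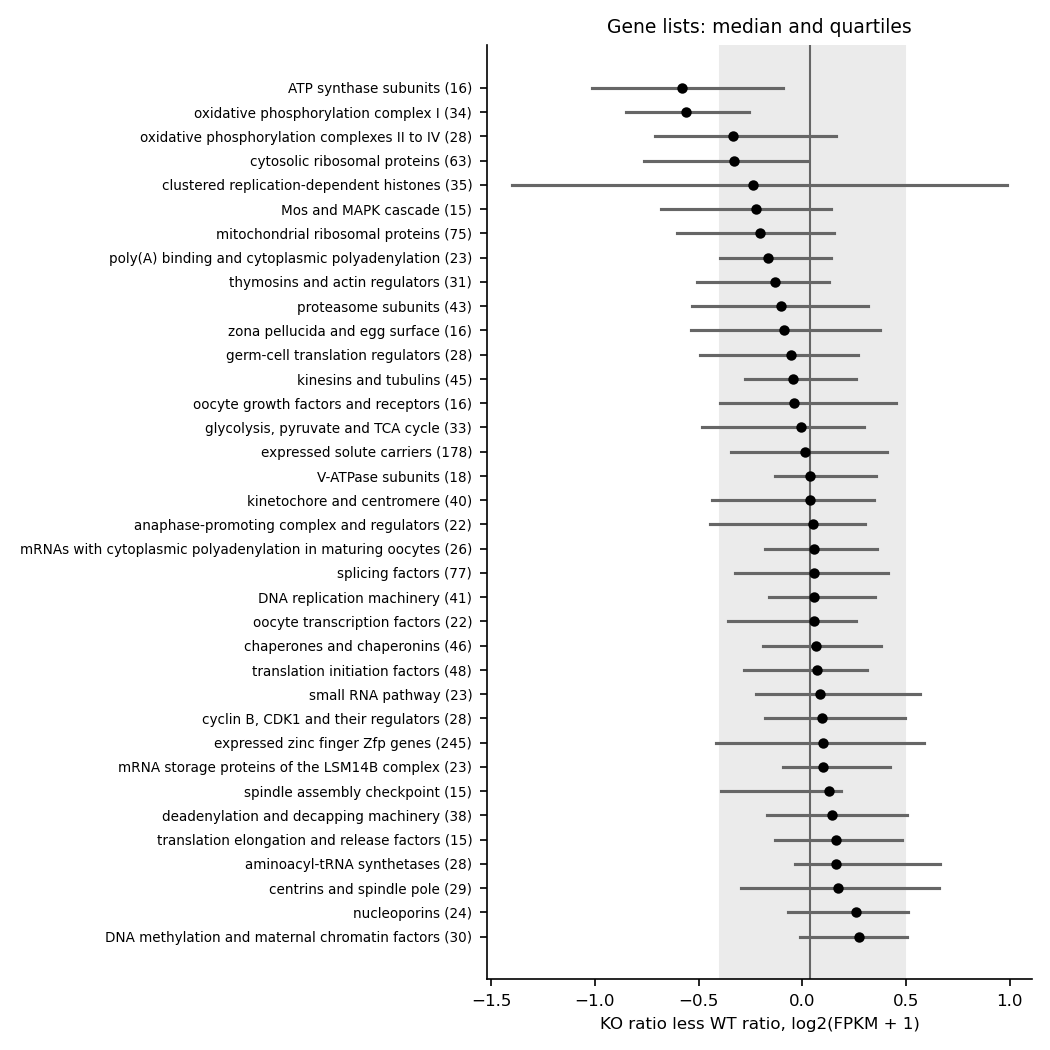
Median (point) and quartiles (line) of the change of the polysome-to-RNP ratio (log2(FPKM + 1), KO less WT) for each gene list with at least 15 genes tested, whose number is in brackets. The vertical line and grey band are the median and quartiles of all genes tested (0.038, from -0.40 to 0.49). ATP synthase and complex I had the lowest medians, at -0.58 and -0.56.

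The families of meiotic signalling, polyadenylation and histones also had medians below that of all genes tested. Of 15 genes of the Mos and MAPK cascade, 10 were below 0, with a median of -0.23. Of the 15, 3 (20%) had an unadjusted p under 0.05, all lower, against 5.62% of all genes tested. *Mos*, the kinase that starts the MAPK cascade in maturing oocytes, was at 1645, 1571 and 1894 FPKM in WT RNP and 1299, 1295 and 1364 FPKM in KO RNP. In polysomes it was at 1297, 859 and 1069 FPKM in WT and 515, 610.0 and 639.8 FPKM in KO. *Mos* was thus lower in KO in both pools, and its change of -0.49 ± 0.19 (SE) had an adjusted p of 0.334. *Hras* changed by -1.38 ± 0.40 (SE; adjusted p 0.199) and *Dusp1*, a MAPK phosphatase, by -0.85 ± 0.38 (SE; adjusted p 0.427). Of 23 genes of poly(A) binding and cytoplasmic polyadenylation, 15 were below 0, with a median of -0.17. Yet the 2 (8.70%) with an unadjusted p under 0.05 were both above 0, against 5.53% of all genes tested. These were *Papd7*, a noncanonical poly(A) polymerase, at 0.73 ± 0.22 (SE; adjusted p 0.21), and *Cpeb1*, which binds the cytoplasmic polyadenylation element, at 0.41 ± 0.13 (SE; adjusted p 0.246). *Paip2b* changed by -0.70 ± 0.36 (SE; adjusted p 0.507). Of 35 clustered histone genes, 18 were below 0, with a median of -0.24, but quartiles from -1.40 to 0.99. Of the 35, 2 (5.71%) had an unadjusted p under 0.05, both lower, against 5.62% of all genes tested. Among members averaging 5 FPKM or more, *Hist1h4c*, *Hist4h4* and *Hist1h2bk* had the lowest unadjusted p. They changed by -4.12 ± 1.40 (SE), -2.05 ± 1.10 (SE) and 0.91 ± 0.48 (SE), with adjusted p of 0.278, 0.525 and 0.513. Of these, only *Hist1h4c* had an unadjusted p under 0.05. The mRNAs of clustered histones lack a poly(A) tail, and those listed at 0 in some libraries can be failed estimates.

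The genes of DNA methylation and maternal chromatin and the nucleoporins, whose coding sequences are long, had medians above that of all genes tested. Of 30 genes of DNA methylation and maternal chromatin, 22 were above 0, with a median of 0.27 and a median coding length of 2530.5 bases. Of the 30, 2 (6.67%) had an unadjusted p under 0.05 in the higher direction, near the 5.53% of all genes tested. *Dnmt1*, the maintenance DNA methyltransferase, was at 73.2, 61.9 and 67.7 FPKM in WT RNP and 55.5, 49.0 and 50.2 FPKM in KO RNP. The polysome values were 100.2, 113 and 119 FPKM in WT and 172, 132 and 141 FPKM in KO, a change of 0.79 ± 0.20 (SE), adjusted p 0.14. *Dppa3*, a maternal chromatin protein, and *Uhrf1*, the partner of DNMT1, changed by 0.37 ± 0.16 (SE) and 0.29 ± 0.13 (SE), with adjusted p of 0.427 and 0.457. Of 24 nucleoporin genes, 17 were above 0, with a median of 0.26 and a median coding length of 2122.5 bases. At an unadjusted p under 0.05, 1 (4.17%) was higher and 2 (8.33%) were lower, against 5.53% and 5.62% of all genes tested. These were *Nup214* (0.56 ± 0.21, SE), *Nup35* (-0.49 ± 0.20, SE) and *Nup37* (-0.78 ± 0.34, SE), with adjusted p of 0.343, 0.391 and 0.413. The medians of these families, and of the respiratory chain, ribosomal protein, MAPK and polyadenylation families, kept their side of the median of all genes in all 23 alternatives. That of the histones did not, at 0.166 above the median of all genes without WT RNP library 2. Not every list with long coding sequences had a higher median. The median change was -0.10 for the oocyte *Nlrp* genes (median of 2979 bases) and -0.045 for kinesins and tubulins (2163 bases). For the small RNA pathway (2580 bases) it was 0.087, against 0.038 for all genes tested.

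Other families of protein synthesis and turnover were less shifted. Of 43 proteasome genes, 25 were below 0, with a median of -0.10, and 7 (16.3%) had an unadjusted p under 0.05, all lower. Of 48 genes of translation initiation factors, 22 were below 0 and 26 above, with a median of 0.07 and 1 (2.08%) at an unadjusted p under 0.05. Of 28 aminoacyl-tRNA synthetase genes, 19 were above 0, with a median of 0.16. Of 46 chaperone and chaperonin genes, 28 were above 0, with a median of 0.064. At an unadjusted p under 0.05, 7 (15.2%) were higher, *Hsp90aa1* among them, and 4 (8.70%) lower. Over all genes tested these shares were 5.53% and 5.62%. Of the 49 lists, 45 had 5 or more genes tested, and the medians of 34 of these were within 0.2 of that of all genes tested.

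Proteins of mRNA storage, in a list chosen here, were close to all genes, with 15 of 23 genes above 0 and a median of 0.10. Whether each of them works with LSM14B was not tested. At an unadjusted p under 0.05, 2 (8.70%) of the list were higher and 1 (4.35%) lower, against 5.53% and 5.62% of all genes tested. *Edc4*, a scaffold of the decapping complex, changed by 0.61 ± 0.28 (SE; adjusted p 0.443). *Zar1*, an oocyte RNA-binding protein of mRNA storage, was at 701, 1012 and 952 FPKM in WT RNP and 902, 584 and 1236 FPKM in KO RNP. Its polysome level was 2747, 3142 and 2661 FPKM in WT and 2022, 776 and 1341 FPKM in KO, with no overlap, and its change of -1.13 ± 0.43 (SE) had an adjusted p of 0.336. Of the 14 oocyte markers, 8 were below 0 and 6 above, with a median of -0.05. At an unadjusted p under 0.05, 4 (28.6%) were lower and 2 (14.3%) higher, against 5.62% and 5.53% of all genes tested. *Nobox*, an oocyte transcription factor, was at 309, 343 and 350.0 FPKM in WT RNP and 1567, 1493 and 1415 FPKM in KO RNP, and at 403, 353 and 371 FPKM in WT polysomes and 1084, 1084 and 1173 FPKM in KO polysomes. Its change of -0.59 ± 0.12 (SE) had an adjusted p of 0.0668. *Gdf9*, a growth factor that the oocyte secretes to the follicle, was at 2925, 2919 and 3174 FPKM in WT RNP and 4427, 4478 and 4051 FPKM in KO RNP, and the polysome libraries overlapped. Its change was -0.35 ± 0.09 (SE), adjusted p 0.15. *Oosp1* changed by -0.55 ± 0.14 (SE), *Kit* by 0.54 ± 0.23 (SE) and *Zp1* by 0.59 ± 0.25 (SE), with adjusted p of 0.151, 0.4 and 0.393. The subcortical maternal complex, which the egg needs for first cleavage, had 4 of 8 genes below 0 and a median of -0.02.

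Among the most abundant transcripts, *Zbed3* changed by 0.14 ± 0.12 (SE) and *Gm15698* by -0.22 ± 0.11 (SE), and neither passed. *Rn45s*, the ribosomal RNA precursor, was at 5119, 7915 and 4664 FPKM in the WT polysome libraries against 11394, 10707 and 10715 FPKM in those of KO, with overlapping RNP libraries at 3065 to 4897 FPKM. Its change of 0.83 ± 0.26 (SE) had an adjusted p of 0.238. *Mir300* was listed at 170809 FPKM in KO polysome library 2 and at 0 in the other 11, and was not tested.

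Across all genes the change rose with coding length. The 10449 genes with a coding sequence were cut into quintiles, groups of equal size, by its length. The median change was -0.20 in the shortest quintile (75 to 714 bases, 2090 genes), -0.0008 and 0.034 in the next ones, 0.12 in the one after and 0.24 in the longest quintile (2403 to 24096 bases). The share of genes below 0 was 61.6% in the shortest quintile and 33.2% in the longest. In the shortest quintile 286 genes (13.7%) had an unadjusted p under 0.05 in the lower direction and 73 (3.49%) in the higher. In the longest quintile the counts were 24 (1.15%) and 149 (7.13%). From the shortest to the longest quintile, the median ratio in WT was 0.030, -0.14, -0.16, -0.15 and -0.024. In KO it was -0.17, -0.097, -0.090, -0.048 and 0.18.

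**Figure D5:**
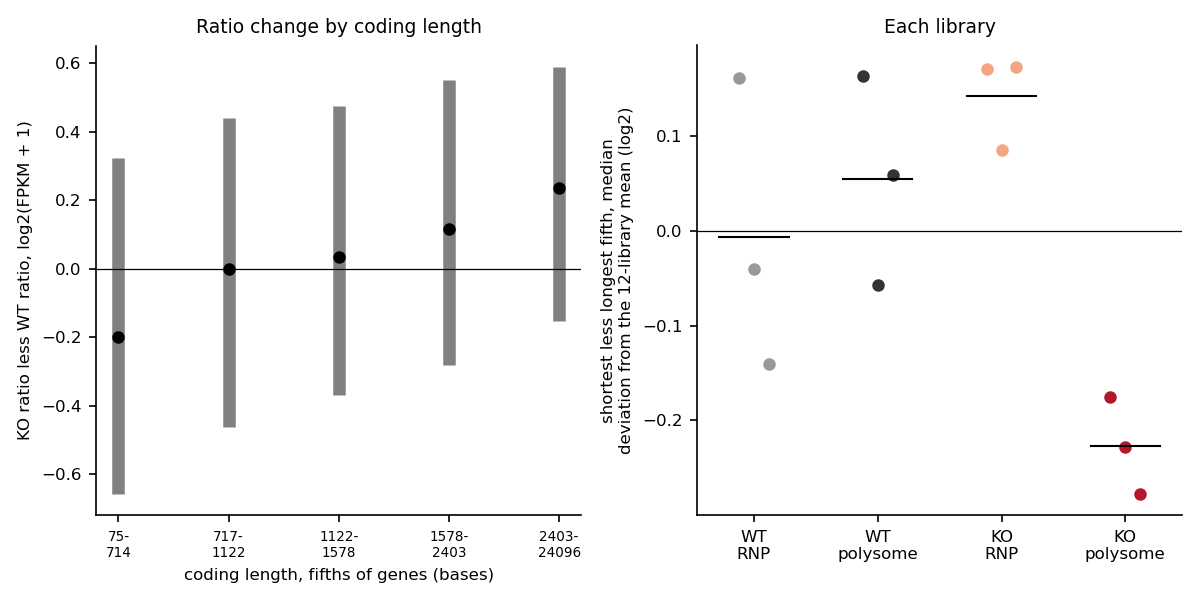
Left, median (point) and quartiles (bar) of the change of the polysome-to-RNP ratio in quintiles of coding length, rising from -0.20 to 0.24. Right, for each library (points, 3 per group) and group mean (line), the median deviation from the 12-library mean in the shortest quintile less that in the longest, in log2(FPKM + 1). The KO polysome libraries lie below 0, the KO RNP libraries above 0, and the WT libraries on both sides.

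The single libraries showed where the difference lay. For each library the log2 level of each gene was set against its mean over the 12 libraries, and the median of the longest quintile was subtracted from that of the shortest. This was -0.18, -0.23 and -0.28 in the KO polysome libraries and 0.17, 0.085 and 0.17 in the KO RNP libraries. It was 0.16, -0.057 and 0.059 in the WT polysome libraries and 0.16, -0.04 and -0.14 in the WT RNP libraries. This difference between short and long coding sequences was thus lower in the 3 KO polysome libraries than in the other 9, while the libraries of the WT pools overlapped each other. Its group mean was -0.23 in KO and 0.055 in WT polysomes, and 0.14 in KO and -0.0063 in WT RNP. Both pools thus entered the contrast, though the RNP libraries of the genotypes overlapped. The contrast of the 4 group means was -0.43, and between -0.51 and -0.36 with any 1 library left out. It was -0.45 over the genes whose mean reached 5 FPKM.

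Of the features examined, coding length and the transcript length that contains it had the closest relation with the change. Over genes, Spearman's rho between the change and coding length was 0.196 (10449 genes), and between the change and transcript length 0.206 (10854 genes). It was 0.123 for the length of the 3' UTR, 0.038 for the 5' UTR and -0.0005 for GC content. Genes share the 12 libraries and are not independent, so these are descriptions. The WT ratio itself had a rho of -0.0088 with coding length and the KO ratio 0.153. In WT the middle quintiles had the lowest median ratios, a pattern that rho does not show. Genes were then split at the median coding length and the median 3' UTR (1341 and 950 bases). With a short coding sequence the median change was -0.16 with a short 3' UTR (2875 genes) and 0.006 with a long one (2361 genes). With a long coding sequence it was 0.12 (2350 genes) and 0.19 (2863 genes).

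Letters of the cytoplasmic polyadenylation element (TTTTAT or TTTTAAT, sense strand) in the last 150 bases of the transcript were in 2452 of 9521 transcripts (25.8%). The median change was 0.12 with them and 0.041 without. Transcripts with these letters were also longer, at a median of 3226.5 against 2966 bases, and the part of length in this difference was not tested. The letters CCTCTC, searched on the sense strand anywhere in the transcript, were in 63.8% of 10854 transcripts, with a median change of 0.086 against -0.051 without. Transcripts without CCTCTC had a median length of 1994 bases and those with it 3377 bases, and here too the part of length was not tested. Per kilobase of transcript, the number of CCTCTC matches had a rho of 0.029 with the change.

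To see how much of the family medians went with length, a smooth curve of each library's deviation on transcript length was subtracted and the fit was repeated. The number of genes called was then 24, of which 18 were among the 26, with 14 lower and 10 higher. The median of the cytosolic ribosomal proteins moved from -0.37 below the median of all genes to -0.01, that of complexes II to IV from -0.37 to -0.05 and that of the mitochondrial ribosomal proteins from -0.24 to -0.11. Complex I moved from -0.60 to -0.25 and ATP synthase from -0.62 to -0.28. The curve uses the same genes, so this describes how the families and length overlap. Replicate libraries correlated over the genes tested (Pearson's r of log2 values) at 0.883 to 0.885 in WT polysomes, 0.907 to 0.932 in WT RNP, 0.933 to 0.936 in KO polysomes and 0.960 to 0.962 in KO RNP. The low values in the table rose in steps that correspond to 4.76 to 7.84 M fragments (M, mega) per library. With 200 bases taken from the transcript length, 1 fragment per remaining kb was worth 0.128 to 0.21 FPKM.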

How the data were processed

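The deposited table holds the FPKM of 24259 gene symbols in 12 libraries (3 each of WT RNP, WT polysome, KO RNP and KO polysome). The authors amplified cDNA by Smart-seq2 without strand marking, sequenced it, mapped the reads to mm10 with TopHat2 2.0.13 and calculated and normalized FPKM with Cufflinks 2.2.1. The annotation release is not given in the sources used here, and the sources differ on the densest sucrose and on the library kit. The table also holds 54 columns of the authors' own comparisons (fold changes, p-values and q-values), which were not used.

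Here, log2(FPKM + 1) was fitted with limma 3.58.1 in R 4.3.3, with empirical Bayes moderation, an intensity trend and 1 mean per group over all 12 libraries. The ratio change is the interaction of genotype and pool, with Benjamini-Hochberg adjustment over 10949 genes at 0.05. SE and 95% intervals are from this fit. The same pseudocount understates changes of low genes.

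Genes, the 49 gene lists and the features were chosen with earlier results of these data known. The text names *Lsm14b*, all genes called, up to 3 genes with the lowest p (mean of at least 5 FPKM) of each list of at least 5 tested genes whose median was 0.2 or more from that of all genes, the 5 most abundant genes, and markers and storage proteins with an unadjusted p under 0.05. A gene named by this rule is not reported here. Of the symbols, 22991 matched GENCODE M21 (GRCm38) by symbol and locus and 739 by another symbol. Lengths are those of 1 principal transcript per gene. The depth of each library was inferred from the steps between low values, assuming an effective length of the transcript less 200 bases.

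The sources used here do not say whether same-numbered pools of 1 genotype came from 1 gradient. Their deviations from group means correlated at -0.00875 to 0.000237 over genes, which shows no pairing but cannot exclude it. The main fit used no replicate block. Alternatives were pseudocounts of 0.1 and 5, no filter, a filter at 5 FPKM, 3 rescalings, replicate blocks, no trend, and each library left out. Python 3.11.15, pandas 2.3.3, numpy 2.4.6 and matplotlib 3.10.9 were also used, and the fit was tested on simulated data.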

Additional observations from a re-analysis of the deposited data

Results flagged for a closer look

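The polysome-to-RNP ratio differed between the genotypes in 26 genes by the test of the difference itself. The change was below 0 for *Tmsb4x* (-5.20), *Cetn2* (-1.76), *Atp5g1* (-1.69), *Sdhaf4* (-1.65), *Fth1* (-1.49), *Thap4* (-1.47), *Prdx2* (-1.44), *Acot13* (-1.33), *Rplp1* (-1.32), *Cox8a* (-1.27), *Rab32* (-1.26), *Tmed2* (-1.26), *0610012G03Rik* (-1.23), *Stra13* (-1.20), *Smagp* (-1.05), *Timm8b* (-1.05) and *Khdc1b* (-0.832). It was above 0 for *C86187* (0.757), *Hsp90aa1* (0.776), *Rnf8* (0.804), *Actb* (0.854), *Zfp784* (2.97), *1700030A11Rik* (3.27), *Mocs1* (3.41), *Zfp7* (4.26) and *Wdyhv1* (5.37). *Cetn2* passed under 19 of the 23 alternatives, *Tmsb4x* under 18, *Rnf8* under 4 and *Timm8b* under 5.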

How the results depend on the processing

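All 26 genes kept their direction with an unadjusted p under 0.05 under each of the 23 alternatives. These reuse the libraries by which the genes were picked, so this is no support for the calls. The number that passed the adjusted threshold depended on the setting. It was 36 with a filter at 5 FPKM (27 lower), 38 with libraries rescaled to the same median (28 lower), and 45 with libraries rescaled to the same sum without *Mir300*. In that last setting 35 were lower and 10 higher, against 17 and 9. It was 6 without the intensity trend (4 higher, 2 lower). With the replicate number as a block it was 11 (2 higher, 9 lower), and with the block within each genotype it was 0 (0 higher, 0 lower), with 1129 genes at an unadjusted p under 0.05. With 1 library left out it ran from 0 to 46, with 0 to 14 higher and 0 to 32 lower, and at the count of 0 there were 970 and 1008 genes at an unadjusted p under 0.05. The cause of these differences was not tested. Removing the length trend, an alternative added once the values had been seen, gave 24 genes. Over the 67 named genes tested, 3 values changed sign: *Inha* was -0.98 with a pseudocount of 0.1 and from -0.62 (without WT polysome replicate 2) to 1.08 with 1 library left out, and *Gm15698* was 0.11 with the length trend removed. No read counts are in the table, so the error of low values is known only from the spread between libraries.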

Other observations

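A pair of markers of granulosa cells outside the rule for naming genes, chosen after their values were seen, were highest in the KO polysome libraries, unlike *Cyp19a1* of the same list, whose mean was 37.7 FPKM in WT polysomes and 24.2 FPKM in KO polysomes. *Gja1*, a gap junction protein, was at 4.91, 10.9 and 6.98 FPKM there, listed at 0 in the 3 WT polysome libraries, and at 0.583 FPKM or less in all RNP libraries. *Inhba*, an activin subunit, was at 3.72, 8.27 and 11.9 FPKM in KO polysomes, 0.252, 0 and 0 FPKM in WT polysomes, and 0, 0.112 and 2.79 FPKM in KO RNP.

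An oocyte gene could be lower in KO in both pools while its ratio change did not pass. *Btg4*, an adaptor of the deadenylase that clears maternal mRNA, also chosen after its values were seen, was at 1573 to 1660.5 FPKM in WT RNP and 521 to 579.9 FPKM in KO RNP, and at 790.0 to 906 FPKM in WT polysomes and 358 to 432 FPKM in KO polysomes. Its ratio change was 0.47 with an unadjusted p of 0.00216, and it did not pass the adjusted threshold.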
